A study of Mus musculus with 2 samples.

Results

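The genes described here are those of the mouse major histocompatibility complex (MHC) and of antigen presentation: every measured gene whose symbol starts with H2-, the prefix of the mouse MHC, and 14 named partners, among them B2m and Cd74. They came to 40 of the 17044 genes measured. Class I and class II were kept apart. Class I held 27 members, made up of 16 heavy chains, 6 partners and 5 genes of the immunoproteasome and its PA28 activator. Class II held 11 members, made up of 3 chains, 5 DM and DO chaperones and 3 partners. The remaining 2, H2-K2, an unprocessed pseudogene, and H2-Ke6, which encodes a steroid dehydrogenase, belong to neither class.

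MHC class I molecules are found on nearly all nucleated cells and show CD8+ T cells peptides cut from proteins made inside the cell. The proteasome cuts these peptides, the transporter TAP carries them into the endoplasmic reticulum, and a heavy chain there pairs with the light chain, beta-2 microglobulin, before it moves to the surface. Class II molecules show CD4+ T cells peptides from material that was taken up. They are typical of macrophages, dendritic cells and B cells, and epithelium, gut epithelium included, can express them after exposure to interferon gamma.

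Single-cell RNA was measured in the colon epithelium of C57BL/6 mice, wild type in genotype and taken 2 weeks after they had been irradiated. The study's title concerns colonoids (organoids grown from colon crypts) transplanted in radiation proctitis. There was 1 group with 2 libraries. The labels give no age and do not mark grafted cells, and unirradiated samples were not analysed here. What the authors deposited is 1 average for each gene in each of 12 cell clusters, which carry the numbers 0 to 11, in UMIs (unique transcript tags) per 10000 UMIs of a cell, written below as a level.

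Whole-number arithmetic of the low averages gave 3082 cells in all, with the most in cluster 0 (482) and the fewest in cluster 11 (19) and cluster 10 (31). UMI totals were read for 2676 cells (86.8%), with medians by cluster between 1427 in cluster 5 and 19354 in cluster 7. Marker lists made cluster 0 goblet-like, cluster 5 neutrophil-like, cluster 7 proliferating-like, clusters 8 and 9 absorptive colonocyte-like and cluster 11 enteroendocrine-like. Clusters 1, 2, 3, 4 and 6 were left unnamed, and their summed epithelial markers (6 genes) stood between 149 and 235 per 10000, against 31.2 in cluster 5 and 17.3 in cluster 10. Cluster 10 was also left unnamed, since macrophage and dendritic (12 of 13 measured), T and NK (7 of 7) and mast cell markers (4 of 7) were all highest in it. The 4 pan-leukocyte genes summed to 51.0 in cluster 5 and 44.7 in cluster 10, against 2.83 or less elsewhere. Cluster 6 was led by the plasma cell genes Igkc (13.8), Igha (9.41) and Jchain (3.16), and its 5 measured B and plasma cell markers summed to 26.4, against 0.477 or less elsewhere. In cluster 3 the neutrophil granule genes Ngp (2.81) and Camp (2.35) had the largest folds. The columns do not separate the libraries, so no value has a replicate and no test was possible. Differences are given by size with 95% intervals, exact Poisson for levels and exact binomial for shares, which cover counting error only. Clusters were drawn by the authors from these same expression values, so a gene that sets a cluster apart describes it.

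Of the 40 members, 31 lie on chromosome 17, and all 26 with an H2- symbol fall between positions 33974659 and 37274484 of mm10 (GRCm38) in the GENCODE M21 annotation. The other members include B2m on chromosome 2 (122147686 to 122153083) and the class II regulator Ciita on chromosome 16. Promoter stretches of 4 genes are shown because the results turn on them: H2-K1 and B2m for classical class I, H2-Q10 for the heavy chain that leads the neutrophil-like cluster, and H2-Aa for class II. Each is the 250 bases before the start of the gene (RefSeq, GRCm38.p6), 5′ to 3′ on the gene's strand. In H2-K1, H2-Aa and B2m, capitals mark matches, on either strand, to CCAAT, to TGACG, to an interferon response motif (GAAA, any 2 bases and GAAA again) or to enhancer A, the first run of 10 capitals in H2-K1. In H2-Q10, capitals mark the 10 bases that lie where H2-D1 has enhancer A.
H2-K1 (chr17:34000348-34000597, minus strand): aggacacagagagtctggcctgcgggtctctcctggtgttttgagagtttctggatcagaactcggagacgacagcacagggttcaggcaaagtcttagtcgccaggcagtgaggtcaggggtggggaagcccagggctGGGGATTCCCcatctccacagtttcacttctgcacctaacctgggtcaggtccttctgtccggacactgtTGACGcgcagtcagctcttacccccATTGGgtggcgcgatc
H2-Q10 (chr17:35469839-35470088, plus strand): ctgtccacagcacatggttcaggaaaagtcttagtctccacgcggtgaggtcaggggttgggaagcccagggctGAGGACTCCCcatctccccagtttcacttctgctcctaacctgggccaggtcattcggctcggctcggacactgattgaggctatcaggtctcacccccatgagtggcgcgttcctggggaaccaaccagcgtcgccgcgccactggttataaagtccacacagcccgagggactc
B2m (chr2:122147437-122147686, plus strand): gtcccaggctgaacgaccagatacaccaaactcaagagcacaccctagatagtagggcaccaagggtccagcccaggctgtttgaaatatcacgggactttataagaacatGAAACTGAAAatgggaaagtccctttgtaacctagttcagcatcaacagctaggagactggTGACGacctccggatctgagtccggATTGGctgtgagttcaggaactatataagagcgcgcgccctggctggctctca
H2-Aa (chr17:34287824-34288073, minus strand): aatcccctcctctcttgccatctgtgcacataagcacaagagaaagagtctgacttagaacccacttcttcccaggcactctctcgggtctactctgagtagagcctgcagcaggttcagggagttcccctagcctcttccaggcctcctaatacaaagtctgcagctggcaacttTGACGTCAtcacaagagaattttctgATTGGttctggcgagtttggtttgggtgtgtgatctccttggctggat

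A RefSeq window was held for 29 of the 40 members, 20 in class I, 8 in class II and 1 in neither class. Enhancer A, a motif known from class I promoters, was found in 4 of the 20 class I windows (H2-K1, H2-D1, H2-Q6 and H2-Q7), in none of the 8 class II windows and in 0.0814% of all 27025 windows. The interferon response motif, searched in this exact form only, was found in B2m, H2-T23, H2-T22 and Ctss, and in 3.04% of all windows. Variants of it were not searched, so a window without a match can still hold such an element. CCAAT, the core of the Y box, was in 13 of 20 class I and 6 of 8 class II windows, against 34.5% of all windows. TGACG, the core of the X2 box, was in 10 of 20 class I windows and in 1 of 8 class II windows, against 17.9% of all. An X box of 11 letters was in no member's window and in 0.0148% of all. The H2-Q10 window held none of these 5 motifs, although 79.9% of its alignment with the H2-D1 window is identical. Where H2-D1 has enhancer A, H2-Q10 differs by G2A and T6C, counted from 1 at the 5′ end of the motif with the H2-D1 base first. These are matches of letters, and no binding was measured.

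**Figure D1:**
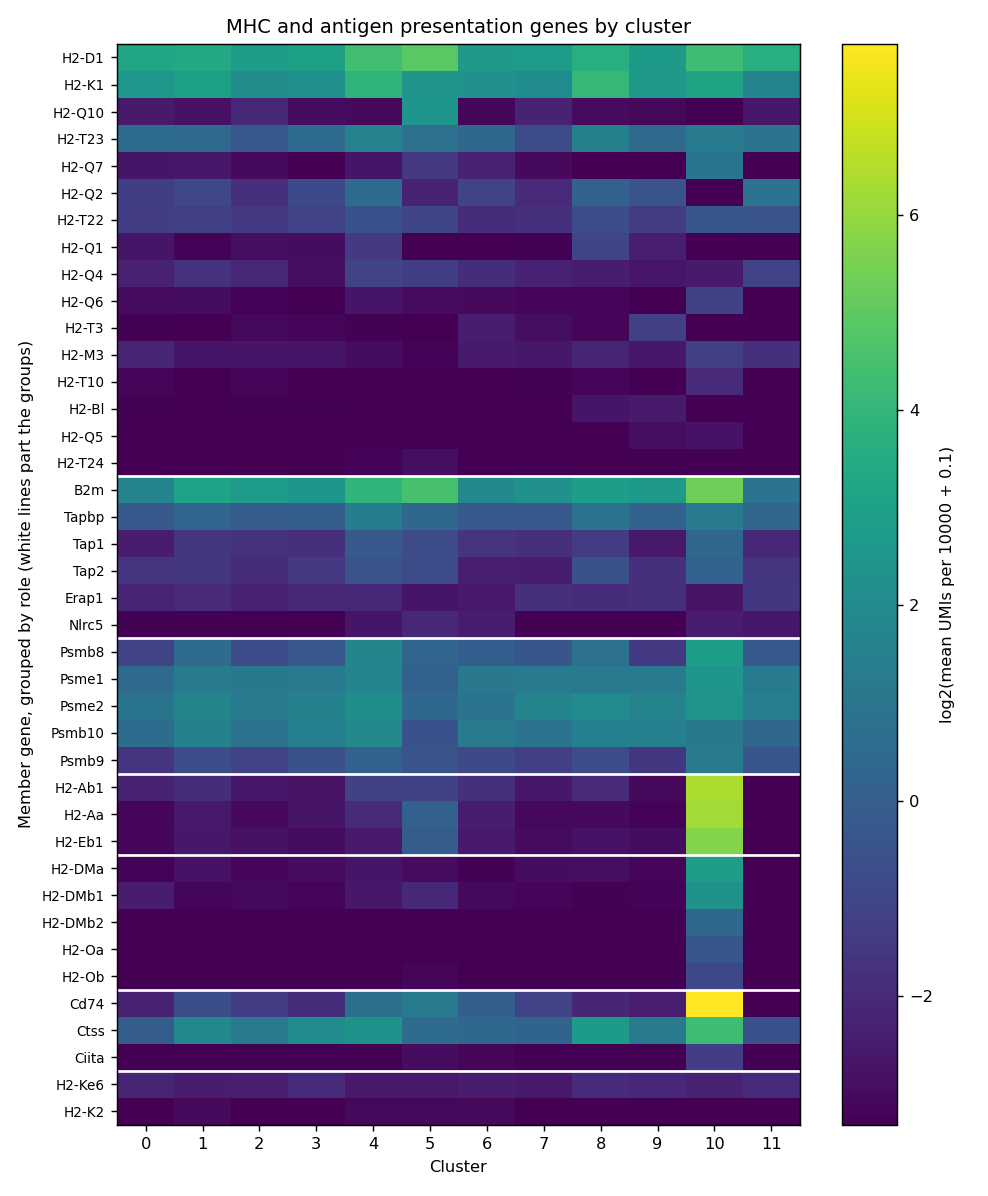
Levels of the 40 members (rows, grouped by role) in the 12 clusters (columns), as log2 of the mean UMIs per 10000 plus 0.1, 1 value per square. The class II rows are bright in cluster 10 alone apart from Cd74 and Ctss, while the class I rows are bright in several clusters, among them 4, 5, 8 and 10.

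The class I heavy chains, which carry the peptide groove, were present in every cluster and differed by up to 3.68-fold in their sum. Neutrophil-like cluster 5 had the highest summed level, 43.9 per 10000 (41.5 to 46.4). Cluster 4, whose 6 epithelial markers summed to 235, had 41.5 (40.2 to 42.9). Cluster 10 had 34.8 (32.3 to 37.3) and the absorptive colonocyte-like cluster 8 had 33.6 (32.2 to 35.0). Clusters 1 and 11 followed with 20.5 and 20.4, then cluster 0 with 17.4, cluster 9 with 15.6, cluster 3 with 14.7, cluster 6 with 13.01 and cluster 2 with 12.8, and the proliferating-like cluster 7 was lowest with 11.9 (11.4 to 12.5). Neighbours in this order had overlapping intervals except clusters 4 and 10, clusters 8 and 1, and clusters 0 and 9. Cluster 4 thus stood 3.48-fold above cluster 7 and cluster 8 stood 2.81-fold above it. Ribosomal protein genes took from 3.99% of the UMIs (cluster 8) to 5.42% (cluster 5) and 5.81% (cluster 4) in 3 of these clusters, against 10.3% to 22.5% in all others. With ribosomal protein and mitochondrially encoded genes left out of the total, a scaling chosen after the data were seen that shifts all other genes up by 0.13 to 0.46 log2 units, cluster 4 had a sum of 47.4 and cluster 8 one of 36.7, against 16.004 for cluster 7.

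H2-K1 and H2-D1, the classical heavy chains of this strain, did not follow each other across the clusters. H2-K1 was highest in the colonocyte-like cluster 8, with 16.4 (15.4 to 17.4), and next in cluster 4, with 14.8 (14.03 to 15.7). From cluster 0 to cluster 11 in order, its levels were 5.94, 7.84, 4.23, 4.64, 14.8, 5.30, 4.74, 4.05, 16.4, 6.31, 8.87 and 3.12. The intervals of clusters 8 and 4 lay above those of all 10 others. H2-D1 was highest in the neutrophil-like cluster 5, at 30.2 (28.2 to 32.3), and cluster 4 came next with 20.98 (20.01 to 21.98). In the same order its levels were 8.99, 10.2, 7.01, 7.73, 20.98, 30.2, 6.04, 6.72, 12.2, 6.398, 20.1 and 12.4. Clusters 4 and 10 were therefore among the 3 highest for both genes, while clusters 5 and 8 were each high for a different one.

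The share of H2-K1 in the sum of H2-K1 and H2-D1 shows the same difference without regard to scaling. The colonocyte-like pair had the highest shares, 57.3% (55.1 to 59.6) for cluster 8 and 49.7% (47.02 to 52.3) for cluster 9. The lowest was 14.9% (12.8 to 17.3) for cluster 5, before 20.1% (15.3 to 25.7) for the enteroendocrine-like cluster 11 and 30.7% (27.1 to 34.4) for cluster 10. The 7 other clusters lay between 37.5% and 44.0%. Across the 12 clusters the rank correlation of H2-K1 with H2-D1 was 0.38, and these points share cells, libraries and scaling.

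B2m, the light chain of all these heavy chains, was highest in cluster 10, with 39.6 (37.02 to 42.4), ahead of cluster 5 with 23.1 and cluster 4 with 14.96 (14.1 to 15.8). Taken by cluster number, 0 to 11, B2m levels were 2.99, 8.61, 6.94, 5.48, 14.96, 23.1, 3.57, 4.77, 7.23, 6.005, 39.6 and 1.78. Cluster 8, high for the heavy chains, thus had less B2m than cluster 1, and the enteroendocrine-like cluster 11 had the least, with 1.78 (1.19 to 2.57). The rank correlation of B2m with H2-K1 was 0.65 and with H2-D1 0.58 over the 12 clusters. Over the 10 clusters without 5 and 10 it was 0.71 with H2-K1 and 0.31 with H2-D1.

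**Figure D2:**
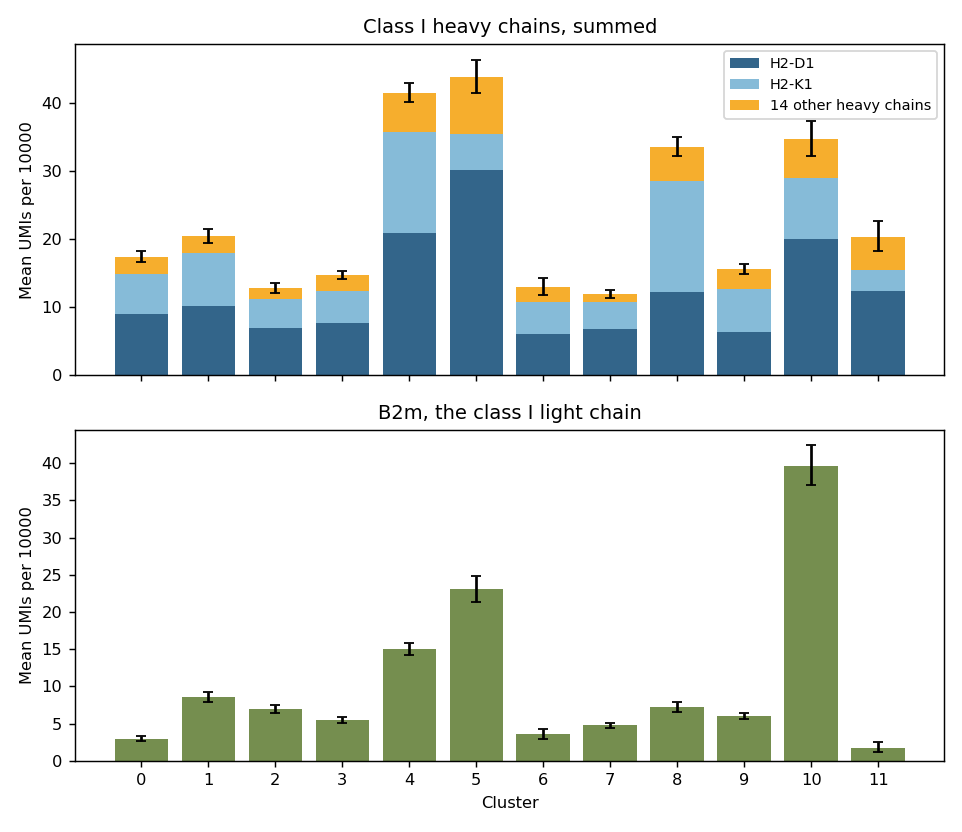
Summed class I heavy chains (top, split into H2-D1, H2-K1 and the 14 others) and B2m (bottom) by cluster, in mean UMIs per 10000, with 95% Poisson intervals. The heavy chain sum is high in clusters 4, 5, 8 and 10 (33.6 to 43.9), while B2m is highest in cluster 10 at 39.6 and stands at 7.23 in cluster 8.

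The other 14 heavy chains, which include the non-classical Q, T and M genes, had narrower patterns. Their near-identical copies make single values uncertain: 13.6% of the 91-base stretches of H2-Q7 transcripts, 13.0% for H2-Q6, 11.5% for H2-T22, 9.10% for H2-Q1 and 5.93% for H2-Q2 also occur in another gene (GENCODE M21), and how such reads were counted is not given in the sources used here. H2-T23, which encodes Qa-1, a ligand of NK receptors, was above 0 in every cluster. Cluster 4 had 2.95 (2.59 to 3.34), cluster 8 had 2.73 and cluster 10 had 2.31, clusters 0, 1, 3, 5, 6, 9 and 11 had between 1.22 and 1.81, cluster 2 had 0.737 and cluster 7 had 0.472 (0.367 to 0.598). The order resembles that of the summed heavy chains, with clusters 4 and 8 high and cluster 7 lowest.

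H2-Q1 and H2-Q2 were highest in clusters with epithelial markers. For H2-Q1, cluster 8 had 0.401 (0.263 to 0.584), cluster 4 had 0.254 (0.158 to 0.387) and cluster 9 had 0.0895, while it stood at 0.0542 or less in clusters 0, 1, 2, 3 and 7, and at 0 in clusters 5, 6, 10 and 11. For H2-Q2, cluster 11 had 1.78 (1.19 to 2.56), cluster 4 had 1.36 (1.12 to 1.63), cluster 8 had 1.003 and cluster 9 had 0.641, while it stood between 0.148 and 0.462 in clusters 0, 1, 2, 3, 6 and 7, at 0.107 in cluster 5 and at 0 in cluster 10. A level of 0 in cluster 10 allows up to 0.139. Neither gene was above 0.107 in cluster 5 or above 0 in cluster 10, the clusters with the highest pan-leukocyte sums.

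H2-T3, which encodes the thymus leukaemia antigen known from mouse intestinal epithelium, was highest in the colonocyte-like cluster 9. Its level was 0.334 (0.235 to 0.460) there, 0.0788 in cluster 6, 0.0332 in cluster 7, 0.0178 or less in clusters 0, 2, 3, 4, 5 and 8, and 0 in clusters 1, 10 and 11. Cluster 8, the other colonocyte-like cluster, had 0.0101 from 1 UMI in 1 cell. H2-Bl, annotated like H2-Q5 and H2-T10 as a polymorphic pseudogene, was highest in the same pair. It stood at 0.0721 in cluster 9 and 0.0528 in cluster 8, against 0.00338 or less elsewhere. The 0 in clusters 5, 6, 10 and 11 allows up to 0.104, 0.0843, 0.139 and 0.186, above both of these levels. The intervals of clusters 9 and 8 lay apart for H2-T3 and overlapped for H2-Bl.

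H2-Q10 encodes a secreted class I molecule best known from mouse liver. It stood at 5.59 (4.76 to 6.53) in the neutrophil-like cluster 5, against 0.140 or less in every other cluster. From cluster 0 to cluster 11 its levels were 0.0747, 0.0473, 0.140, 0.0294, 0.0198, 5.59, 0.0108, 0.106, 0.0251, 0.0181, 0 and 0.0622. It was the one class I gene to lead cluster 5, meaning a level of 1 or more that was 2-fold or more over the next cluster, a mark that 1.45% of all genes met for cluster 5. In all, 12 of the 40 members led a cluster, 11 of them cluster 10, against 4.5% of all genes leading any cluster. Of the 91-base stretches of H2-Q10, 9.59% occur in another gene, mainly H2-Q7. H2-Q7 itself stood at 0.259 in cluster 5, and cluster 4, with H2-D1 at 20.98, had H2-Q10 at 0.0198. The part of reads from other heavy chains in the H2-Q10 levels was not tested. The 8 neutrophil markers summed to 1159 per 10000 for cluster 5, 41.6 for cluster 2 and 3.60 for cluster 7. The part of neutrophil RNA in the values of clusters 2 and 7 was not tested.

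Of the remaining heavy chains, H2-Q7, which encodes Qa-2, led cluster 10, at 1.86 (1.33 to 2.53) against 0.259 in cluster 5 and 0.112 or less elsewhere. H2-Q6 (0.353), H2-T10 (0.157) and H2-M3 (0.327), a heavy chain that binds formylated peptides, were also highest in cluster 10. The 0 of H2-T10 in cluster 11 allows up to 0.186, above its cluster 10 level, so its order there could not be read. H2-M3 stood at 0.191 in the 19 cells of cluster 11. H2-T22 lay between 0.166 (cluster 6) and 0.682 (cluster 10). H2-Q4 was highest in clusters 11 and 4, with 0.378 and 0.376, and lowest in cluster 3, with 0.0333. H2-Q5 and H2-T24 never passed 0.0437, and each of their highest values came from 1 cell.

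**Figure D3:**
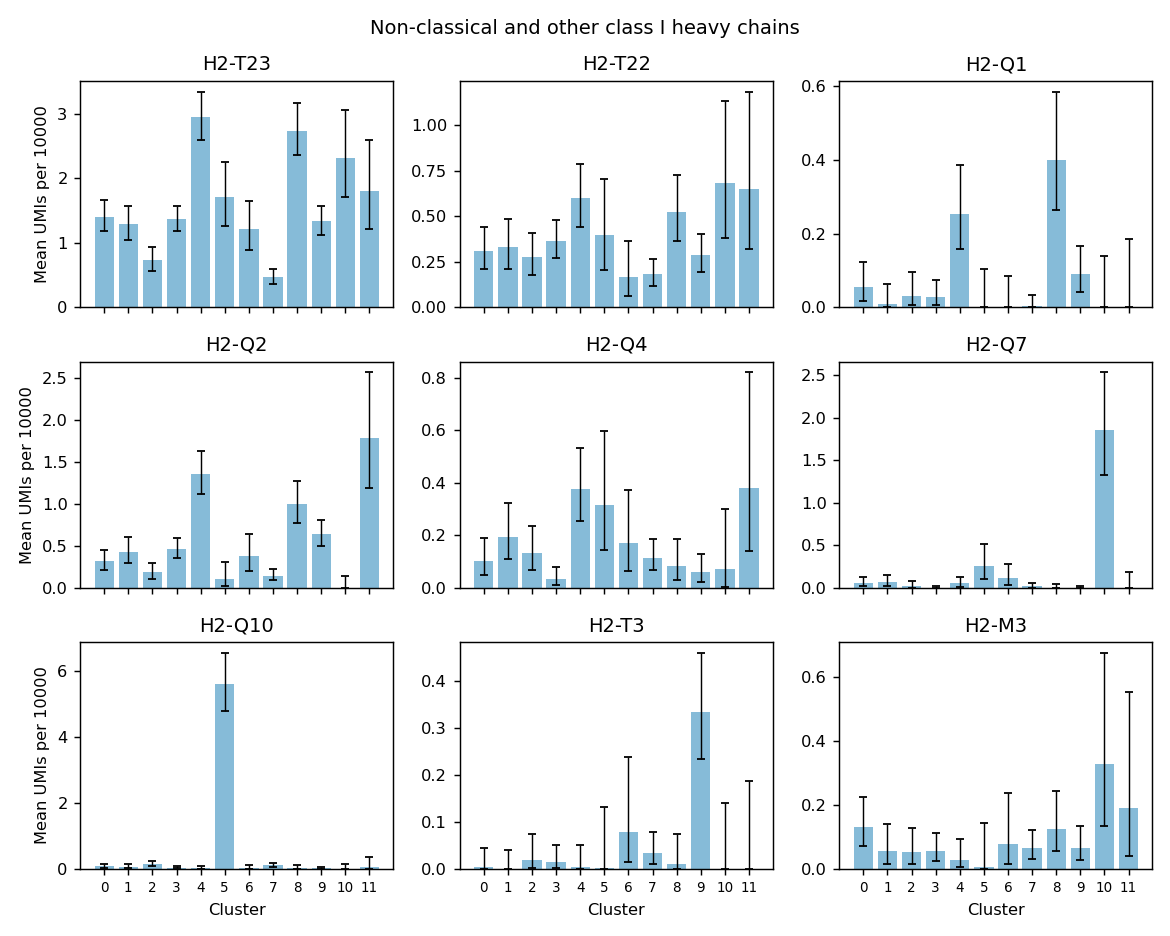
Levels of 9 non-classical and other heavy chains by cluster, in mean UMIs per 10000 on a scale of each gene's own, with 95% Poisson intervals (an interval with no bar is the limit that a count of 0 allows). H2-Q10 stands out in cluster 5 at 5.59, H2-Q7 in cluster 10 at 1.86, H2-T3 in cluster 9 at 0.334 and H2-Q1 in clusters 8 and 4.

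The loading partners were highest in clusters 10 and 4. Tap1, a subunit of the peptide transporter, was highest in cluster 10, with 1.18 (0.769 to 1.74), then cluster 4, with 0.756 (0.582 to 0.967), and cluster 5, with 0.484. Clusters 1, 2, 3, 6, 7, 8 and 11 had between 0.133 and 0.275, cluster 0 had 0.0778 and cluster 9 had 0.0698 (0.0296 to 0.139). Tap2, its partner subunit, stood at 0.992, 0.617, 0.568 and 0.495 in clusters 10, 4, 8 and 5, in that order, and at 0.257 or less elsewhere. Tapbp, tapasin, which bridges TAP and the heavy chain, was highest in cluster 4, with 2.40, then cluster 10, with 2.35, and cluster 8, with 1.77, and had 0.750 to 1.23 elsewhere. Clusters 10 and 4 overlapped in their intervals for all 3 genes. Erap1, which trims peptides, was low, at 0.0500 to 0.242, with no cluster apart from the rest. Nlrc5, the transactivator of class I genes, was at 0 in clusters 3, 8 and 9 and nowhere above 0.138, so that its order could not be read at this depth.

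The immunoproteasome replaces the 3 catalytic subunits of the standard proteasome by Psmb8, Psmb9 and Psmb10 and is induced by interferon. Its share of the catalytic subunits, with the standard Psmb5, Psmb6 and Psmb7 as the rest, was highest in cluster 4, with 59.4% (56.4 to 62.3), then cluster 10, with 58.1% (53.3 to 62.7), and cluster 8, with 50.2% (46.3 to 54.2). From cluster 0 to cluster 11 the shares were 22.96%, 38.9%, 27.6%, 37.1%, 59.4%, 43.96%, 32.5%, 19.4%, 50.2%, 30.2%, 58.1% and 22.7%. Cluster 4 and the 31 cells of cluster 10 thus overlapped in their intervals, and the proliferating-like cluster 7 was lowest, with 19.4% (17.7 to 21.1). Both sides of the share differed between clusters 7 and 4. In cluster 7 the standard subunits summed to 11.6 and the immunoproteasome subunits to 2.79, while in cluster 4 the standard subunits summed to 5.35 and the immunoproteasome subunits to 7.81.

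The 3 subunits differed in where they were high. Psmb8 was highest in cluster 10, with 7.396 (6.29 to 8.64), then cluster 4, with 3.19 (2.82 to 3.59), and lowest in cluster 9, with 0.269 (0.181 to 0.385). By cluster number, 0 to 11, its levels were 0.387, 1.35, 0.477, 0.701, 3.19, 1.12, 0.894, 0.689, 1.71, 0.269, 7.396 and 0.725. Against its standard counterpart Psmb5, its share was highest in clusters 10 and 4, with 71.3% and 67.9%, against 49.3% for cluster 8 and 9.81% (6.71 to 13.7) for cluster 9, the lowest of the 12. Psmb9 took from 6.20% (cluster 7) to 42.8% (cluster 10) of its pair with Psmb6, with 26.9% for cluster 4. Psmb10 was ordered otherwise: its share of the pair with Psmb7 was highest in cluster 4, with 76.2% (71.7 to 80.3), while cluster 10 had 46.5% (36.4 to 56.7). The colonocyte-like clusters had 74.3% (cluster 8) and 59.9% (cluster 9) of this pair.

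The PA28 activator, which opens the proteasome, is made of Psme1 and Psme2. Psme1 was highest in cluster 10 (5.55) and cluster 4 (3.05) and lowest in cluster 5 (0.999), with 1.30 to 2.35 elsewhere. Psme2 was highest in cluster 10 (5.28), cluster 4 (4.48) and cluster 8 (4.001) and lowest in cluster 5 (1.22), and 19.99% of its 91-base stretches are shared with Psme2b. Neutrophil-like cluster 5, highest for H2-D1 and the heavy chain sum, was thus lowest for both PA28 subunits and for Psmb10 (0.584). The standard subunits Psmb5, Psmb6 and Psmb7 were also lowest there, with a sum of 2.99, against 4.80 or more elsewhere. Low levels in cluster 5 were therefore not particular to the immunoproteasome and PA28, and its immunoproteasome share was 43.96%.

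**Figure D4:**
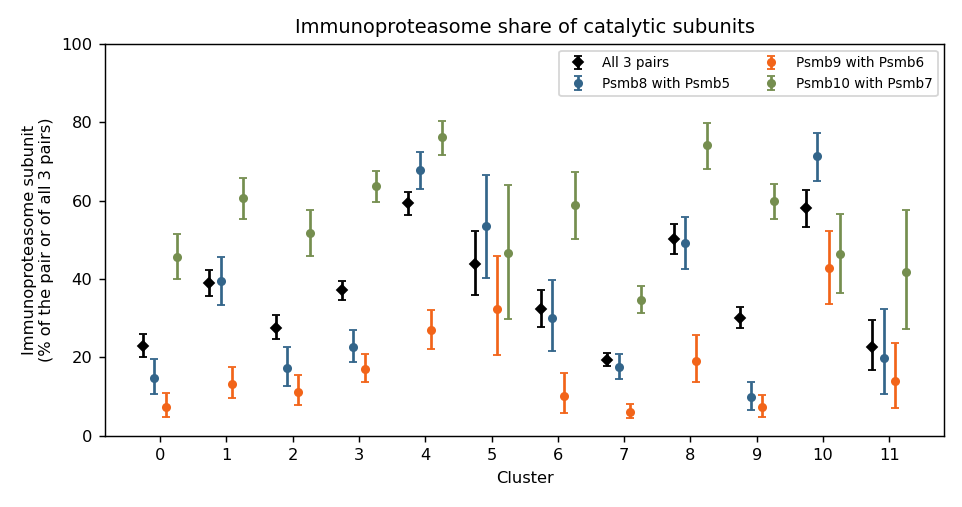
Immunoproteasome subunits as a percentage of each pair with the standard subunit and of all 3 pairs together, by cluster, with exact 95% binomial intervals. The overall share lies at 59.4% for cluster 4, 58.1% for cluster 10 and 19.4% for cluster 7, and the Psmb8 pair lies at 9.81% in cluster 9.

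Counted over the class I list, cluster 10 had the most members high. There 10 of 27 exceeded the average of the other clusters by 2-fold or more (on levels plus 0.1), against 5.77% of all genes, and 13 were at their highest, against 8.84% of all genes. Both counts include H2-T10 (0.157), near the 0.139 that a 0 allows in cluster 10. The 13 also include H2-Q5 (0.0437), which lies below it. Cluster 4 had 5 of 27 past this mark (background 3.26%), namely H2-K1, H2-Q1, H2-Q2, Tap1 and Psmb8. Cluster 5 had 3 (background 5.13%), H2-D1, H2-Q10 and B2m, and cluster 8 had 2 (background 3.7%), H2-K1 and H2-Q1. Members came from few cells in places: of the 324 class I values, 48 were 0, 21 came from 1 cell and 16 from 2 or 3 cells.

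Among the 10 clusters other than 5 and 10, which include the plasma cell RNA of cluster 6, cluster 4 stood out for class I. There 13 of the 27 members had their highest level, against 8.67% of all genes, and 11 exceeded the average of the other 9 by 2-fold or more, against 2.99% of all genes. These 11 were H2-K1, H2-D1, H2-Q1, H2-Q2, H2-T23, B2m, Tap1, Tap2, Tapbp, Psmb8 and Psmb9, that is, heavy chains, light chain, transporter and proteasome alike. H2-T23 and Psmb9 passed narrowly, with log2 differences of 1.05 and 1.04. The count of 11 was not recomputed with ribosomal protein and mitochondrial genes left out. None of the 27 was at least 2-fold below. The median log2 difference was 0.70, against -0.09 over all genes. Cluster 8 followed with 3 members at least 2-fold above (background 3.1%), H2-K1, H2-Q1 and Tap2, and a median of 0.24. All 5 immunoproteasome and PA28 genes were highest in cluster 4 of the 10, though Psmb10, Psme1 and Psme2 did not pass the 2-fold mark. Interferon-stimulated genes named after their values were seen, Ubd at 1.95 and Ifit1 at 1.54, were among the 10 genes with the largest fold in cluster 4. The 4 pan-leukocyte genes summed to 0.0412 in cluster 4, with Ptprc and Coro1a at 0. The 8 neutrophil markers summed to 6.50 there, of which Ly6g, highest in cluster 8 (8.19), made up 5.66, and the B and plasma cell markers to 0.441, of which Igkc made up 0.353. The part of leukocyte RNA in the values of cluster 4 was not tested.

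Class II was carried by cluster 10. All 11 members were highest there and past the 2-fold mark, against 8.84% and 5.77% of all genes, and 8 of the 11 led the cluster, against 0.716% of all genes. The summed level of the 9 class II chains, chaperones and Cd74 was 438 (429 to 447) in cluster 10. Cluster 5 had 4.63 (3.88 to 5.49), cluster 4 had 2.31 (1.99 to 2.66), cluster 6, where the plasma cell genes lead, had 1.29 and cluster 1 had 0.905, and the other 7 had 0.526 or less. The part of plasma cell RNA in the class II level of cluster 6 was not tested. All these counts of cluster 10 rest on 31 cells of more than one type, so that fewer cells of a type and less RNA per cell cannot be told apart.

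Cd74, the invariant chain that guards the class II groove until it reaches the endosome, stood at 216 (210 to 222) in cluster 10. Cluster 5 had 2.25 (1.74 to 2.87) and cluster 4 had 1.60 (1.34 to 1.90). From cluster 0 to cluster 11 the levels were 0.118, 0.541, 0.309, 0.173, 1.60, 2.25, 0.929, 0.376, 0.129, 0.0915, 216 and 0, and the 0 in the 19 cells of cluster 11 allows up to 0.186. The second highest cluster was thus 95.8-fold lower. H2-Ab1, the beta chain of the A molecule, stood at 82.7 (78.9 to 86.6) in cluster 10 and at 0.361 or less elsewhere, highest in cluster 4. H2-Aa, its alpha chain, stood at 74.0 (70.4 to 77.7) in cluster 10 and at 0.987 or less elsewhere, and H2-Eb1, a beta chain of the E molecule, at 51.1 (48.1 to 54.2) in cluster 10 and at 0.868 or less elsewhere. For both, the second highest level was in cluster 5.

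The chaperones that load class II followed. H2-DMa, H2-DMb1 and H2-DMb2, chains of the DM molecule that swaps peptides into the groove, stood at 7.25, 5.12 and 1.19 in cluster 10. H2-DMb1 and H2-DMb2 share 13.0% and 12.1% of their stretches, mainly with each other. H2-Oa and H2-Ob, chains of DO, which holds DM back, stood at 0.677 and 0.423. H2-DMb2 and H2-Oa were at 0 in all 11 other clusters. With 3 UMIs as the limit of each cluster, the H2-DMb2 level of cluster 10 was 57.6-fold the limit of cluster 7, the most deeply sequenced. It was 6.39-fold the limit of cluster 11. These folds leave out the counting error of cluster 10 itself. Ciita, the class II transactivator, stood at 0.306 (0.119 to 0.645) in cluster 10, and its 3 other values above 0 were at most 0.0289, in cluster 5, from 1 UMI in 1 cell.

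Ctss, a protease that degrades Cd74, was the class II member least tied to cluster 10. Cluster 10 had 19.6 (17.8 to 21.6), cluster 8 had 6.48 (5.88 to 7.12) and cluster 4 had 4.92 (4.45 to 5.42). From cluster 0 to cluster 11 its levels were 0.848, 3.53, 2.34, 4.03, 4.92, 1.34, 1.25, 1.09, 6.48, 2.28, 19.6 and 0.593. Its second highest cluster was the colonocyte-like 8, where Cd74 stood at 0.129.

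Outside cluster 10 the class II genes did not keep the proportions they have there. In cluster 4, Cd74 was at 0.744% (0.623 to 0.881) of its cluster 10 level, H2-Ab1 at 0.436% (0.295 to 0.622), H2-Aa at 0.209% (0.111 to 0.358) and H2-Eb1 at 0.142% (0.0523 to 0.307). In cluster 5 the order was turned: H2-Eb1 was at 1.70% (1.10 to 2.51), H2-Aa at 1.33% (0.890 to 1.92), Cd74 at 1.04% (0.805 to 1.33) and H2-Ab1 at 0.423% (0.203 to 0.776). Macrophage markers were measured the same way in cluster 4, and so was Apoe. Apoe is outside the marker lists and was among the 10 genes with the largest fold in cluster 10. Lyz2 was at 0 (up to 0.0648% allowed) and Apoe at 0.00536% (up to 0.104). C1qa was at 0.0149% (up to 0.394), C1qb at 0.0245% (up to 0.317) and C1qc at 0.134% (0.00419 to 0.710). These intervals leave out the counting error of cluster 10 itself. The upper bound of Lyz2 lay below the lower bounds of Cd74, H2-Ab1 and H2-Aa, and that of Apoe below those of Cd74 and H2-Ab1. Apoe (up to 0.104%) and H2-Aa (from 0.111%) lay too near each other to be told apart. The C1q intervals overlapped those of H2-Ab1, H2-Aa and H2-Eb1, and that of C1qc also overlapped Cd74. The 13 measured macrophage and dendritic markers summed to 0.0618 in cluster 4, and the 5 B and plasma cell markers to 0.441, near the 0.477 of cluster 10. In cluster 5 the macrophage and dendritic markers summed to 17.5, of which Lyz2 alone made up 13.6. As percentages of cluster 10, Lyz2 was at 24.6%, Apoe at 2.97%, C1qc at 2.32%, C1qb at 1.34% and C1qa at 0.919%. These lay in the range of the class II percentages or above it. The part of RNA from cells like those of cluster 10 in the values of clusters 4 and 5 was not tested. Among the 10 clusters without 5 and 10, 4 of the 11 class II members were highest in cluster 4, against 8.67% of all genes. These were Cd74, H2-Ab1, H2-Aa and H2-DMa, the last at only 0.0524, against 0.0439 in cluster 1. Cd74 and H2-Ab1 passed the 2-fold mark over the other 9, against 2.99% of all genes. H2-Oa, H2-DMb2 and H2-Ob were at 0 in all 10 clusters.

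**Figure D5:**
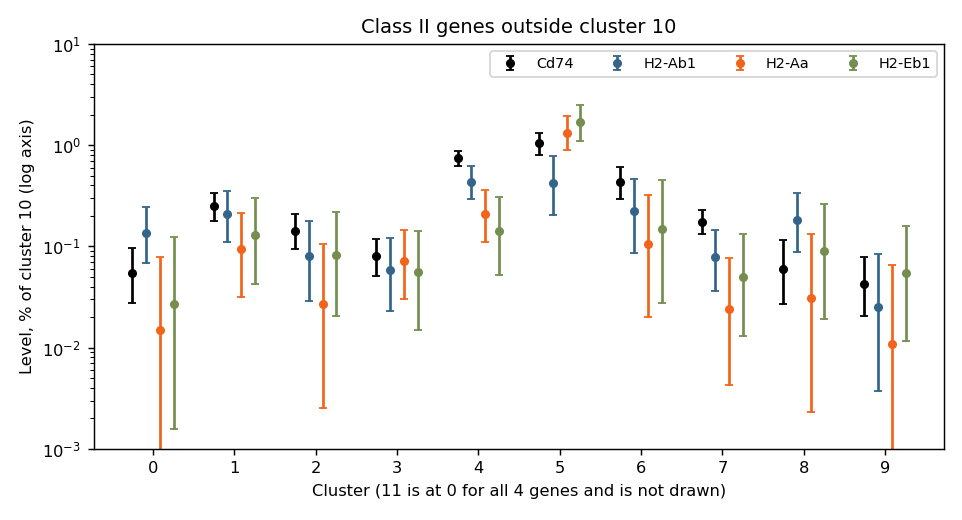
Levels of Cd74, H2-Ab1, H2-Aa and H2-Eb1 in clusters 0 to 9 as a percentage of their levels in cluster 10, on a log axis, with 95% intervals for counting error of the cluster shown (those that reach the lower edge run on below it). Cluster 4 lies at 0.744% for Cd74 and 0.142% for H2-Eb1, and cluster 5 at 1.04% for Cd74 and 1.70% for H2-Eb1.

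Other genes of the pathway were read from 7 lists outside the members, 53 symbols of which 49 were measured. In cluster 10, 16 of the 49 passed the 2-fold mark upward (background 5.77%). These were chiefly class II endosome genes (5 of 7) and costimulatory genes (5 of 6), such as the thiol reductase Ifi30 at 9.65, against at most 2.05 elsewhere, the protease Lgmn at 4.40, against at most 0.419, and Cd86, the ligand of CD28, at 1.86, against at most 0.108. In cluster 4, 2 of the 49 passed it upward and 5 downward, near the 3.26% and 7.29% of all genes. The interferon gamma receptor genes were highest in epithelial clusters: Ifngr1 was highest in cluster 8 (6.30) and cluster 4 (3.41), with 1.54 for cluster 10 and 0.492 for cluster 11, and Ifngr2 was highest in cluster 4 (2.34). Irf1, an interferon-induced transcription factor, was highest in cluster 5 (3.74), then clusters 8 (1.65) and 4 (1.60), and Fcgrt, a class I-like receptor for antibodies, in cluster 4 (1.59). The endoplasmic reticulum chaperones of class I were ordered otherwise, with Calr at 10.8 in the goblet-like cluster 0 and 5.55 in cluster 4.

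By rank over the 12 clusters, the genes most like the summed class I heavy chains among 3254 genes outside the members were Il10rb and Riok3 (Spearman's rho 0.87 each), Zbp1 (0.86), and Cd82, Samhd1 and Rabgef1, tied at 0.85. Zbp1, a sensor of nucleic acids, was highest in cluster 4 (1.63), then clusters 10 (0.935) and 5 (0.593), and lowest in cluster 9 (0.0703). Within the members, Psmb8 and Psmb9 had a rho of 0.81, Tap1 and Psmb9, which lie side by side on chromosome 17, 0.72, and H2-DMa and H2-DMb1 0.29. The points share cells, libraries, depth and scaling.

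Of the 2 members in neither class, H2-Ke6 was even, from 0.0693 in cluster 5 to 0.156 in cluster 8, and shares 62.8% of its stretches with Gm20427. H2-K2 never passed 0.0223.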

How the data were processed

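Single-cell RNA libraries (1 group, 2 libraries) were processed by the authors with Cell Ranger 3.1.0, Seurat 2.3 and the build mm10, per the submitters' processing notes. The sources used here do not give read length, strand, filters, handling of doublets or how cells were clustered. The deposited values are linear mean UMIs per 10000, the mean over the cells of each cluster after scaling each cell to 10000 UMIs, which was read from the values. All 12 columns were used. From these averages, cell numbers and UMI totals were recovered by whole-number arithmetic (relative tolerance 1e-12, at least 2 genes per total), a step tested on simulated data, and intervals were computed with scipy 1.17.1. Cells without a recovered total were given the lowest total recovered in their cluster, which widens the intervals. A level of 0 allows up to 3 UMIs. Folds used a pseudocount of 0.1, which understates folds of low genes.

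The members, the lists and the clusters singled out were chosen with earlier results of these data known. All 40 members are accounted for, with values in every cluster for members at 1 or more that the results turn on, some members below 1 (H2-Q1, H2-T3) and Tap2 being chosen after their values were seen. Most names outside the members came from 7 pathway lists, the marker lists and the genes most like the class I sum, 6 because of a tie. Ubd, Ifit1, Apoe, Ngp and Camp came from none of these and were chosen after their values were seen. A cluster was named from at least 3 detected markers, with markers among its 10 genes of largest fold. Alternatives were the reference of a fold, pseudocounts of 1 and 0.01, a low-level filter, averages from 1 cell set to 0, clusters under 50 cells left out, and the genes in a sum. Motifs were searched on both strands in RefSeq windows, without regard to overlap between motifs, and windows overlapping annotated exons by more than a few bases are not printed.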

Additional observations from a re-analysis of the deposited data

How the results depend on the processing

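Of 65 values recomputed under the alternatives, 40 moved by less than their counting error or, for counts, by at most 1.5 times, among them the members that lead a cluster, which numbered 18 with the mean of the other clusters as the comparison. As log2 folds over the mean of the others, the class I heavy chain sum was 0.93, 1.03 and 0.58 for clusters 4, 5 and 8 in that order. Against the highest other cluster it was -0.081 in cluster 4 and -0.39 in cluster 8, both reversed because cluster 5 is then the comparison, and 0.081 in cluster 5, where it is cluster 4. With clusters 5 and 10 left out of the comparison it was 1.22, 1.12 and 0.84, and without clusters under 50 cells it was 1.02, 1.12 and 0.66. Scaled without ribosomal protein and mitochondrial genes, an alternative chosen after the data were seen, it was 0.84, 0.92 and 0.43. For the class II sum in cluster 10 the log2 fold was 8.59. It was 6.53 against the highest other cluster, 9.15 with cluster 5 left out of the comparison, 7.75 with a pseudocount of 1, 8.71 with a pseudocount of 0.01, 8.67 with the other scaling and 8.68 without Cd74. Class I members at least 2-fold above the others numbered 5 in cluster 4, against 0 over the highest other cluster, 11 with clusters 5 and 10 left out of the comparison, 1 with a pseudocount of 1 and 10 without clusters under 50 cells. In cluster 10 they numbered 10, against 5 over the highest other cluster and 5 with a pseudocount of 1. The 12 members that lead a cluster were 1, H2-Q10, without clusters under 50 cells, because the alternative leaves out cluster 10. For cluster 10 that alternative gives no value. Pseudocounts and the low-level filter do not apply to shares. The shares of clusters 4, 7, 8 and 10 were recomputed only with averages from 1 cell set to 0, which changed no subunit level there. Their values are among the 40 above but say nothing on how stable the shares are.

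No paired analysis was possible because there is 1 group and the columns do not separate its libraries, for which reason leaving out each library was not run. With 31 and 19 cells in clusters 10 and 11 and a median of 1427 UMIs in cluster 5, 3 UMIs correspond to levels of 0.139, 0.186 and 0.104 in clusters 10, 11 and 5, below which a level could not be told from 0. Averages hide how a level is spread over cells.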
